A study of Rattus norvegicus with 16 samples.

Results

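The comparison described here sets the proximal femur of the inbred rat strain F344 (Fischer 344) against that of the inbred strain DA (Dark Agouti), across every gene measured. Its members are the 8 expression arrays that the titles assign to these strains, 4 for F344 and 4 for DA, out of 16 arrays in all. The other 8 arrays, 4 from LEW (Lewis) rats and 4 from COP (Copenhagen 2331) rats, entered the same model and are quoted only for reference. Whole femora came from 4-week-old animals of all 4 strains, RNA was taken from the proximal end, and 5 µg of total RNA per sample was labelled with biotin. The stated purpose was to compare expression at a chromosome 4 locus mapped in F2 rats from F344 and LEW. Neither strain carried a treatment or an engineered allele in the labels, and strain was the one stated difference. The labels did not give sex, nor whether each array held a separate animal, so p-values measure only the spread between these arrays.

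The proximal femur of a young rat holds several tissues at once. Growth plate chondrocytes lay down cartilage that osteoclasts remove and osteoblasts replace with bone, osteocytes sit inside that bone, and the cavities are filled with marrow in which red cells, granulocytes, platelets and B lymphocytes are made. A bulk RNA sample of such a piece carries the transcripts of all of them together, so that fewer cells of a type and less RNA per cell cannot be told apart in any result below.

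Each array gave 1 signal per probe set, an intensity on a linear scale that the authors had scaled within the array, and differences below are log2 differences between strain means, F344 minus DA. Defining markers of the tissue were present on all 8 arrays: Col1a1 and Bglap (bone matrix), Col2a1 and Col10a1 (cartilage), Acp5 and Ctsk (osteoclasts) and Hbb (red cells) were all bright, Col1a1 at 56469 to 75008 and Hbb at 51455 to 77340.4. Acta1 of skeletal muscle, at 51692 to 72850.3, was as bright. Sost, the osteocyte inhibitor of bone formation, fell below the filter on low signals, at 21.7 to 57.8 in F344 and 49.8 to 119 in DA. Arrays of F344 correlated with each other at 0.986 to 0.989 over the log2 signals of the tested probe sets, arrays of DA at 0.982 to 0.983, and arrays of different strains at 0.964 to 0.971. The ratio of 3' to 5' signal for Gapdh, a sign of RNA integrity, was 1.04 ± 0.0226 (SD, n = 4) in F344 and 1.02 ± 0.0126 (SD, n = 4) in DA (two-sided exact permutation p = 0.171). The same ratio was 2.14 ± 0.128 against 1.996 ± 0.12 for actin (p = 0.143, exact) and 3.11 ± 0.808 against 3.47 ± 0.106 for hexokinase (p = 0.343, exact), and the F344 arrays spread from 2.30 to 4.11 for the latter. Xist, which is transcribed from an inactive X chromosome, read 11891 to 16885 over the 8 arrays at its brightest probe set and at least 1773 at the others. The Y-linked Eif2s3y, Sry and Tspy1 read at most 15.2, 128 and 53.3. Of the probe sets for Uty, also Y-linked, one read 2186 to 2830 over the 8 arrays and the other 30.2 to 79.1, so these genes did not all point one way on sex.

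Of 10548 genes tested, 1825 (17.3%) differed between F344 and DA at an adjusted p under 0.05 in limma's moderated test. F344 was higher for 855 (8.11%) and lower for 970 (9.2%). Changes of 2-fold or more were called for 103 genes (0.976%), 46 higher and 57 lower in F344. Counted over all 18625 probe sets that passed the filter, named or not, 2998 (16.1%) were called, 1426 (7.66%) higher and 1572 (8.44%) lower in F344. Of the called probe sets, 270 (1.45% of the 18625) changed 2-fold or more. For 4006 probe sets (21.5%) every F344 array lay on one side of every DA array, and 2641 of these (14.2% of the 18625) were also called. The typical called difference was modest, with a median size of 0.43 on the log2 scale, while the median difference of all genes was -0.000612.

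**Figure D1:**
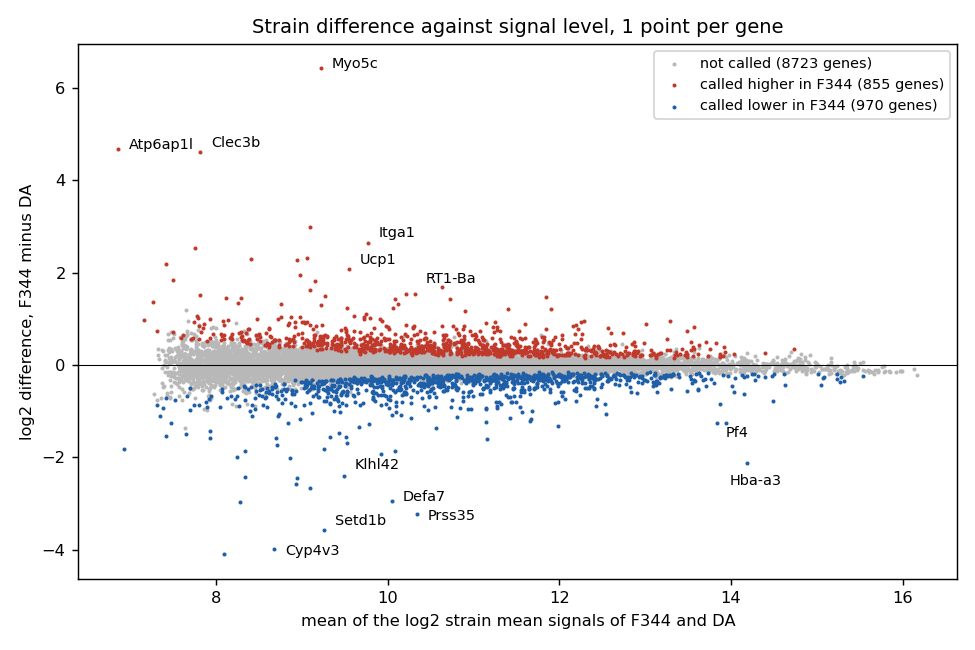
Log2 difference F344 minus DA (vertical) against the mean of both strains' log2 mean signals (horizontal), 1 point per gene. The 855 genes called higher in F344 and the 970 called lower lie on both sides of 0 at every level, and Myo5c stands highest at 6.43.

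The largest difference was Myo5c, which encodes an unconventional class V myosin that carries secretory vesicles. Its signals were 5765, 5533, 5294 and 5353 on the F344 arrays and 78.1, 54.4, 51.2 and 75.5 on the DA arrays. F344 was thus 86.1-fold higher, a log2 difference of 6.43 (SE 0.12, adjusted p = 1.97e-19), and a separate Myo5c probe set differed by 5.02. A signal measures binding to the probes of a set, and probe sequences were not used here, so whether the strains differ in sequence under a probe was not tested for this or any other gene. LEW and COP read 10851 and 7437 on average, so the low strain was DA. Atp6ap1l, related to an accessory subunit of the vacuolar proton pump, had the same shape, with signals of 484, 526, 697 and 633 on the F344 arrays and 16.4, 30.1, 20.8 and 25.5 on the DA arrays. It differed by 4.68 (SE 0.18, adjusted p = 7e-14), and DA was again the low strain of the 4. The DA values of both genes lay below the filter level of 174.

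Several of the largest rises involved proteins of the extracellular space and of adhesion. Clec3b encodes tetranectin, a plasminogen-binding protein of bone and other matrices, and read 1150.00, 975, 948 and 989 on the F344 arrays and 92.1, 33.3, 59.1 and 16.3 on the DA arrays. Its difference was 4.61 (SE 0.47, adjusted p = 4.61e-07), with the DA arrays spread widely at the low end of the scale. Itga1, an integrin subunit through which cells hold collagen, read 2050.1, 2215, 2152 and 2267 on the F344 arrays and 275, 368, 438 and 325 on the DA arrays. The groups were far apart, the difference was 2.65 (SE 0.16, adjusted p = 1.75e-10), and LEW and COP stood near DA at 332 and 369. Cemip2, a cell-surface hyaluronidase, read 556, 485, 553 and 440.3 on the F344 arrays and 106, 98.6, 45.4 and 119 on the DA arrays. It differed by 2.55 (SE 0.27, adjusted p = 1.02e-06).

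Enzymes made up a further group. Prcp, a lysosomal prolylcarboxypeptidase that trims angiotensin and related peptides, read 1645, 1590.1, 1399 and 1368 on the F344 arrays and 263, 127, 280.2 and 133 on the DA arrays, a difference of 2.99 (SE 0.26, adjusted p = 3.51e-08). Ephx2, the soluble epoxide hydrolase, read 725, 747, 789 and 672 on the F344 arrays and 175, 105, 235 and 117 on the DA arrays, a difference of 2.29 (SE 0.22, adjusted p = 2.27e-07). Akr1b8, an aldo-keto reductase encoded on chromosome 4, read 1010.04, 1099, 1037 and 1118 on the F344 arrays and 284, 358, 357 and 224 on the DA arrays, a difference of 1.83 (SE 0.15, adjusted p = 1.21e-08). None of these sets of arrays overlapped, which the rule for naming the largest changes required. Urah, an enzyme of urate breakdown, was the brightest of the group, with signals of 3007, 2703, 2669.9 and 2928 on the F344 arrays and 1057, 959, 903 and 629 on the DA arrays and a difference of 1.70 (SE 0.14, adjusted p = 1.46e-08). LEW resembled F344 for Urah at 2846, and for Prcp and Ephx2 COP lay close to DA at 245 and 139.

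The remaining large rises came from unrelated families. Myl4, an alkali light chain of embryonic and atrial muscle myosin, read 1250.1, 1203, 1109 and 1108 on the F344 arrays and 359, 184, 175 and 265 on the DA arrays, a difference of 2.31 (SE 0.18, adjusted p = 1.21e-08). RT1-A, a classical class I histocompatibility chain, read 1037, 1051, 908 and 1365 on the F344 arrays and 221, 209, 260.5 and 206 on the DA arrays, a difference of 2.27 (SE 0.18, adjusted p = 1.47e-08). F344 was the high strain for RT1-A, since LEW and COP averaged 182 and 314. Gpr4, a proton-sensing receptor of endothelium, read 344, 355, 549.9 and 204 on the F344 arrays and 125, 43.03, 74.99 and 78.01 on the DA arrays, a difference of 2.19 (SE 0.31, adjusted p = 3.34e-05). Ucp1, the uncoupling protein of brown fat, was even in F344 and scattered in DA, at 1359, 1441, 1524 and 1414 on the F344 arrays and 149, 275, 683 and 469.96 on the DA arrays. Its difference of 2.08 therefore carried the widest error of the group (SE 0.55, adjusted p = 0.0128). LEW was more scattered still for Ucp1, at 1037 ± 1203 (SD, n = 4). Fcrl2, an Fc receptor-like protein of B cells, averaged 994 ± 96.2 in F344 against 257 ± 37.8 in DA (SD, n = 4), and Shld1, a subunit of the shieldin complex of DNA break repair, 338 ± 10.8 in F344 against 96.9 ± 27.4 in DA. They differed by 1.95 and 1.85.

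**Figure D2:**
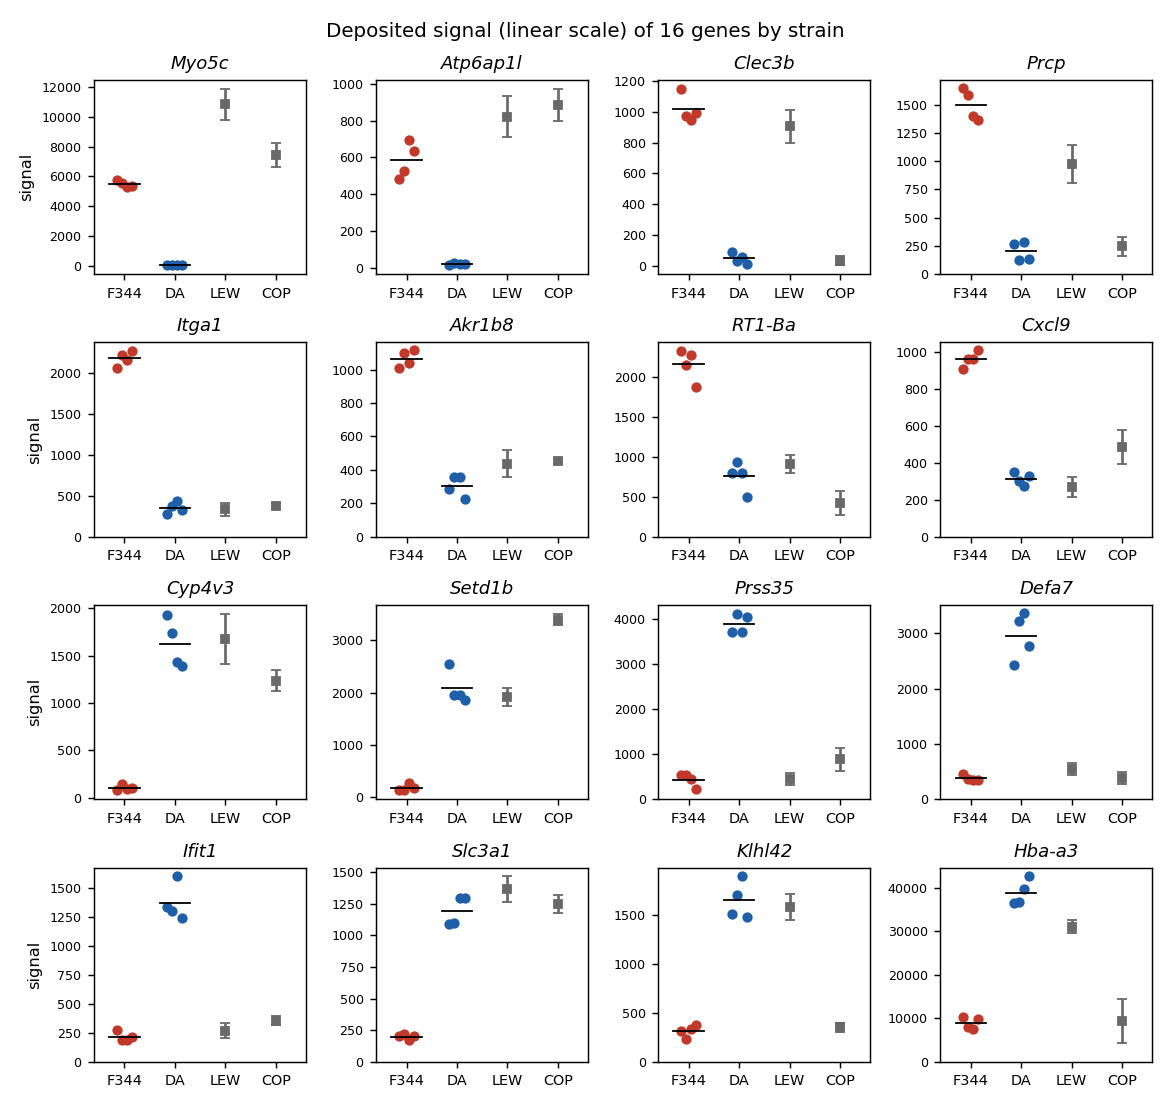
Deposited signal (linear scale, vertical) of 16 genes by strain; red and blue points are single F344 and DA arrays with a line at their mean, grey squares the LEW and COP means with SD over 4 arrays. F344 and DA points do not overlap in any panel, which the naming rule required of the largest changes. LEW and COP fall with F344 for some genes (Myo5c) and with DA for others (Itga1).

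The largest fall was that of RGD1309362, a numbered locus that the naming rule passed over, at -4.10. The largest with a gene name was Cyp4v3, a cytochrome P450 that hydroxylates fatty acids. It read 77.7, 144, 90.8 and 102 on the F344 arrays and 1930.1, 1735, 1430.3 and 1386 on the DA arrays, so that F344 was 15.9-fold lower, at a log2 difference of -3.99 (SE 0.16, adjusted p = 1.31e-13). LEW and COP read 1676 and 1236, and F344 was the low strain. Setd1b, a histone H3 lysine methyltransferase, followed the same order, with signals of 133, 134, 279 and 177 on the F344 arrays and 2544, 1963, 1957 and 1863 on the DA arrays. It differed by -3.58 (SE 0.16, adjusted p = 1.53e-12). Slc3a1, the heavy subunit of a cystine transporter, read 202, 219.6, 169 and 206 on the F344 arrays and 1088, 1100.5, 1299 and 1300.1 on the DA arrays, a difference of -2.59 (SE 0.10, adjusted p = 7e-14). Here too F344 was alone at the low end, with LEW at 1369 and COP at 1249. Hyou1, a chaperone of the endoplasmic reticulum, read 180.01, 88.6, 161 and 134 on the F344 arrays and 1001, 653, 635 and 708 on the DA arrays, a difference of -2.43 (SE 0.18, adjusted p = 5.47e-09).

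For another set of falls DA was the high strain. Prss35, a serine protease-like secreted protein, read 533, 533, 440.02 and 235 on the F344 arrays and 3698, 4108, 3702 and 4036 on the DA arrays, a difference of -3.23 (SE 0.24, adjusted p = 4.2e-09), with LEW at 453 and COP at 888. Defa7, an alpha-defensin of neutrophil granules, read 464, 357, 349.8 and 349.9 on the F344 arrays and 2434, 3214, 3358 and 2766 on the DA arrays, a difference of -2.95 (SE 0.17, adjusted p = 1.2e-10). Ifit1, an interferon-induced protein that binds foreign RNA, read 276, 188, 189 and 218 on the F344 arrays and 1338, 1306, 1609 and 1242 on the DA arrays, a difference of -2.67 (SE 0.16, adjusted p = 2.31e-10). In each case the DA arrays stood clear of the other strains: LEW and COP averaged 547 and 386 for Defa7, and 268 and 357 for Ifit1. Lilrb2, an inhibitory receptor of myeloid cells, read 506, 479, 435 and 592 on the F344 arrays and 1884, 1819, 1901 and 1954 on the DA arrays, a difference of -1.92 (SE 0.10, adjusted p = 1.24e-11). Nfe2l1, a transcription factor that controls proteasome genes, averaged 573 ± 60.02 in F344 against 2067 ± 136 in DA (SD, n = 4), a difference of -1.85. Its other probe sets differed by -1.21, which was called, and by -0.20, which was not (adjusted p = 0.322).

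The remaining 6 of the 15 largest falls included 3 for which LEW and COP lay on different sides, Klhl42, Srsf3 and Hba-a3. Klhl42, a substrate adaptor of a ubiquitin ligase encoded on chromosome 4, read 318, 235, 329.7 and 371 on the F344 arrays and 1512, 1703, 1899 and 1481 on the DA arrays, a difference of -2.41 (SE 0.13, adjusted p = 2.74e-11). A separate Klhl42 probe set, dim in both strains, differed by -0.11 and was not called (adjusted p = 0.748). Srsf3, a splicing factor, read 248, 183, 248 and 167 on the F344 arrays and 834, 1231, 1217 and 1291 on the DA arrays, a difference of -2.44 (SE 0.24, adjusted p = 2.26e-07). Hpse, the heparanase that cleaves heparan sulfate chains, averaged 153 ± 44.8 in F344 against 607 ± 146 in DA, a difference of -1.997. Vof16 and the zinc finger gene Zfp347 differed by -2.96 and -2.02, and for these and Hpse both LEW and COP were nearer to DA. Hba-a3, an alpha globin chain, was by far the brightest of the falls, at 10401, 8065, 7635 and 9818 on the F344 arrays and 36452, 36653, 39706 and 42742 on the DA arrays. It differed by -2.12 (SE 0.24, adjusted p = 1.67e-06), while beta globin (Hbb) differed by -0.16 and was not called (adjusted p = 0.186). COP, at 9363, resembled F344 for this probe set, and LEW, at 31098, was nearer to DA.

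The position of LEW and COP for the 30 largest changes was counted by asking which of F344 and DA their log2 mean lay closer to. Both were closer to F344 for 9 genes, which leaves DA as the strain apart, and both were closer to DA for 11, which leaves F344 apart. Ucp1 is one of the 11, although the scattered LEW arrays averaged 1037 on the linear scale, nearer to F344. For 7 genes LEW went with F344 and COP with DA, 6 of them rises (Clec3b, Prcp, Cemip2, Ephx2, Shld1 and Urah) and 1 a fall (Srsf3). For 3 genes it was the reverse (Fcrl2, Klhl42 and Hba-a3). In 11 of the 30 the lower strain's mean signal was under the filter level, so the fold change there rests on a dim value.

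Among genes bright in both strains (mean signals above 1000), changes were smaller. Pdk4, the kinase that shuts off pyruvate dehydrogenase and turns cells from glucose to fat as fuel, read 6046, 6385, 6137 and 5677 on the F344 arrays and 2015, 2141, 3031 and 1746 on the DA arrays. It differed by 1.47 (SE 0.28, adjusted p = 0.000777), and its second probe set by 1.26. Plec, the cytolinker plectin, averaged 2781 ± 121 in F344 against 1040.1 ± 90.1 in DA (SD, n = 4), a difference of 1.42. Plekhb1 and Lbp, the carrier of bacterial lipopolysaccharide, differed by 1.22 and 1.17. Glrx2, a mitochondrial glutaredoxin, differed by 1.21, although a dimmer probe set for it differed by 0.21 and was not called. The bright falls after Hba-a3 were Cldn5, the tight-junction protein of endothelium, at 1309.98 ± 177 in F344 against 3980.3 ± 736 in DA, a difference of -1.60, and Bmp2k, a kinase induced by bone morphogenetic protein, at -1.31. Pf4, the platelet chemokine, read 9337, 9399, 9674 and 9531 on the F344 arrays and 22069.7, 22358, 23941 and 21763 on the DA arrays, a difference of -1.25 (SE 0.07, adjusted p = 7.44e-11). Ncoa4, the receptor that delivers ferritin for iron release, read 10014, 9856, 10302 and 10513 on the F344 arrays and 23049, 21832, 23299 and 28734 on the DA arrays, a difference of -1.24 (SE 0.07, adjusted p = 4.82e-11). For both, the F344 arrays lay close together and far from the DA arrays. The DA arrays of Ncoa4 were more scattered, with 28734 well above the rest.

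How far separate probe sets of a gene told the same story could be checked for 521 of the 1825 called genes. Another probe set was called the same way for 155, the opposite way for 19, some genes having both, and none was called for 351. Of the 15 such genes with changes of 2-fold or more, 11 had another call in the same direction and 0 in the opposite one. Myh1, the fast type IIX myosin heavy chain of skeletal muscle, was the widest disagreement. One of its probe sets read 1223, 1142, 1320.3 and 1223 in F344 and 11239, 10392, 10521 and 11326 in DA, a difference of -3.15 and 8.86-fold lower in F344. The other 4 probe sets were higher in F344, by 1.08, 0.96, 0.79 and 0.35, and all 5 were called, so the direction for Myh1 was not settled by these arrays. Second probe sets left without a call were also found for Bmp2k (-0.53), Cyp51 (0.27), Egfl7 (0.16), Cnp (-0.41), Igfbp6 (0.20), Cacybp (-0.08), Grb10 (0.08) and Stard4 (-0.27 and 0.12), genes named below or with the bright genes.

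Genes were next grouped by cell type and pathway in 40 lists of 1483 genes, of which 1066 were tested and 288 called. Each list is read against the background of all genes, of which 8.11% were called higher and 9.2% lower in F344.

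**Figure D3:**
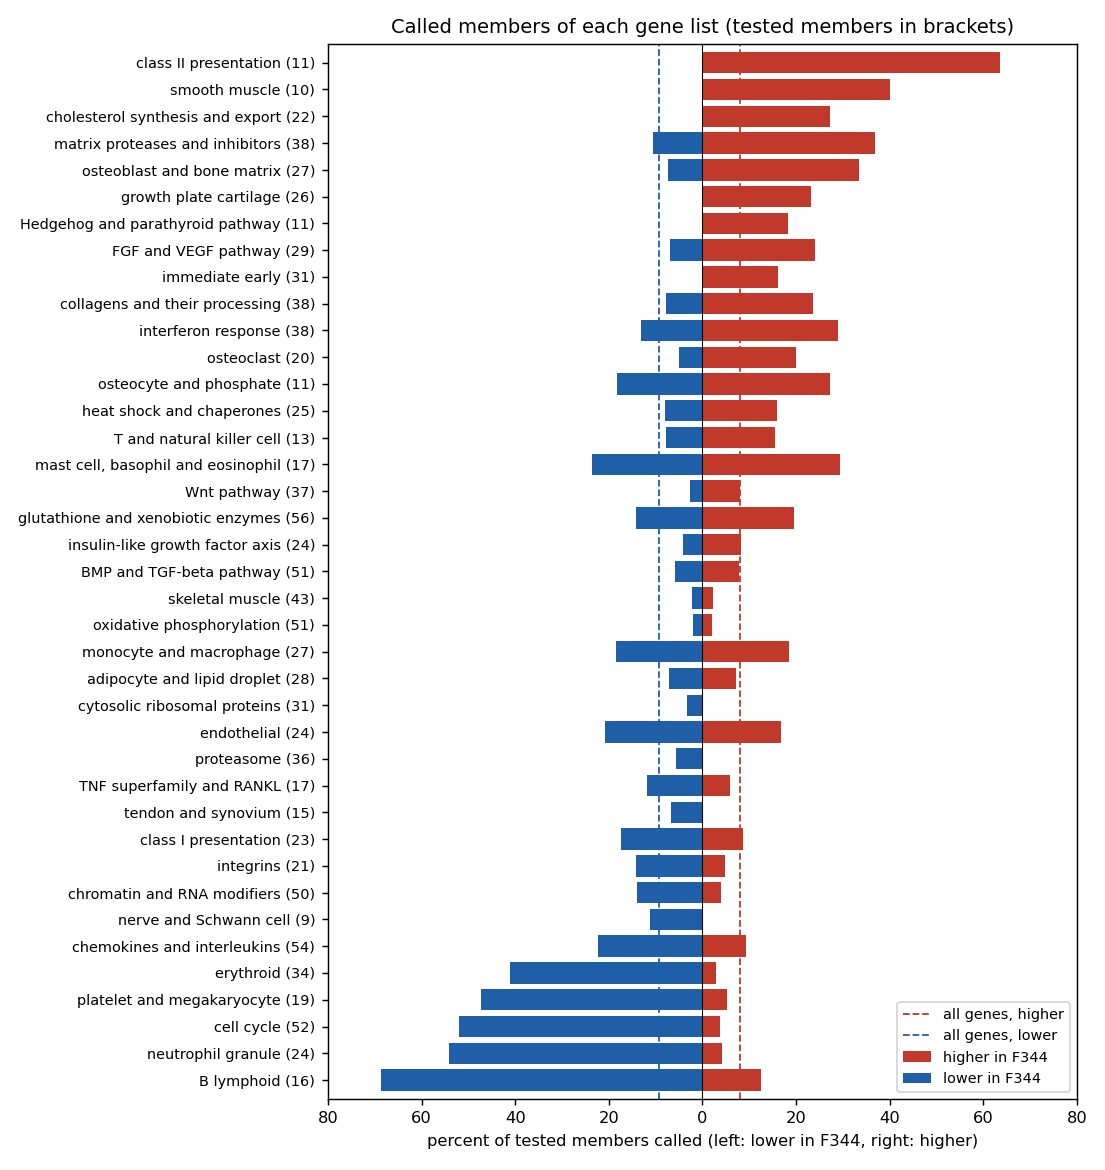
Percent of tested members of each gene list called lower (blue, left) or higher (red, right) in F344, with the number tested in brackets; dashed lines mark the 9.2% lower and 8.11% higher among all genes. Class II presentation reaches furthest to the right and B lymphoid furthest to the left.

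Class II antigen presentation, in which RT1-B and RT1-D dimers on antigen-presenting cells show peptides to helper T cells, was higher in F344. Of 11 tested members 7 were called higher and 0 lower, with a median difference of 0.49. RT1-Ba, the alpha chain of the B dimer, read 2327, 2142, 2272 and 1875 on the F344 arrays and 789.6, 929, 796 and 498 on the DA arrays, a difference of 1.55 (SE 0.20, adjusted p = 1.2e-05). Its partner RT1-Bb read 3484, 3529, 3139 and 3217 on the F344 arrays and 1872, 1705, 1587 and 1895 on the DA arrays, a difference of 0.92 (SE 0.08, adjusted p = 6.57e-08). RT1-Da, of the other dimer, read 8087, 8007, 7689 and 8061 on the F344 arrays and 4612, 5098, 4589 and 4117 on the DA arrays, a difference of 0.79 (SE 0.07, adjusted p = 2.74e-08). For all of them the 4 F344 arrays lay above the 4 DA arrays and above the LEW and COP means. The peptide-loading chains RT1-DMb (0.57) and RT1-DMa (0.56), the beta chain RT1-Db1 (0.49) and the invariant chain Cd74 (0.20) were also called. The list's mean level, centred over the 16 arrays, was 0.39 to 0.46 in F344 and -0.04 to 0.04 in DA. Without DA replicate 2, 1 member was called lower.

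Class I presentation, which displays peptides from inside the cell, was mixed, with 2 of 23 members higher and 4 lower. RT1-A was higher, as given above. Tap2, a chain of the transporter that brings peptides into the endoplasmic reticulum, read 931, 698, 666 and 843 on the F344 arrays and 1794, 1700.3, 1580.03 and 1547 on the DA arrays, a difference of -1.09 (SE 0.12, adjusted p = 9.17e-07). The immunoproteasome subunits Psmb9 (-0.28) and Psmb8 (-0.22) were lower by small margins, and the peptidase Erap1 (0.20) higher. RT1-CE10 differed by -0.37, but its arrays overlapped and its call was lost when any 1 of 7 arrays was left out; other class I genes are close copies of it. The 4 lower calls became 2 without F344 replicate 1, F344 replicate 3, DA replicate 1 or DA replicate 2. The 2 higher calls became 1 without F344 replicates 1, 2 or 3 or DA replicates 2, 3 or 4, each in turn.

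The interferon response, a set of antiviral genes switched on by interferon through promoter elements that bind the ISGF3 and IRF factors, changed in both directions. Of 38 members 11 were called higher and 5 lower, and the median difference was 0.01. The falls were led by Ifit1 and by Mx2, an antiviral GTPase at 67.3 ± 27.4 in F344 against 222 ± 18.4 in DA (SD, n = 4), a difference of -1.81. Among the rises, Rtp4 read 683, 878, 683 and 645 on the F344 arrays and 449.6, 391, 347 and 326 on the DA arrays, a difference of 0.93 (SE 0.17, adjusted p = 0.000655). Ifitm1, a membrane protein that blocks viral entry, read 5887, 6887, 5964 and 5969.7 on the F344 arrays and 3234, 3523, 3375 and 3541 on the DA arrays, a difference of 0.85 (SE 0.07, adjusted p = 8.9e-09). Smaller rises were Trim25 (0.74), Ifi44l (0.68), Oas1a (0.66), Igtp (0.65), Gbp2 (0.56), Bst2 (0.45), Ifit2 (0.33), Ifi27 (0.29) and Ifitm3 (0.19). Smaller falls were Ifi44 (-0.54), Dtx3l (-0.44) and Rsad2 (-0.25). The neighbouring genes Ifi44l and Ifi44 of chromosome 2 were thus called in opposite directions. For Ifi44 the F344 and DA arrays overlapped (adjusted p = 0.034).

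The promoters of these genes are shown because members with the same kind of element moved in opposite directions. The core of such an element, GAAA and a further GAAA with any 2 bases (N) between them, was searched on both strands in the 250 bases before the start of each gene, in RefSeq promoters of the assembly GRCr8. It was found in 7 of the 8 higher members that had a promoter in the table (Ifi27, Ifi44l, Oas1a, Bst2, Ifitm3, Gbp2 and Igtp) and in 2 of the 3 lower ones (Ifi44 and Rsad2). Of all 27457 promoters, 3.29% held it. The stretches below run 5' to 3' along the gene's strand, with matches in capitals; a match on the opposite strand reads as its reverse complement, and overlapping matches run together. The first 3 genes were higher in F344 and the last 2 lower, Ifi44 with overlapping arrays. A match is a description of the letters and not a measured binding site.
Oas1a, GRCr8 chr12:41330401-41330465, + strand: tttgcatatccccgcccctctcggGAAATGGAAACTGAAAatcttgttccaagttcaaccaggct
Igtp, GRCr8 chr10:42874914-42874983, + strand: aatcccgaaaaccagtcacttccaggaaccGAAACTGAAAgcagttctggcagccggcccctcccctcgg
Gbp2, GRCr8 chr2:234005666-234005726, + strand: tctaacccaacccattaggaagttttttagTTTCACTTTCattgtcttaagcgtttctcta
Ifi44, GRCr8 chr2:243303841-243303896, - strand: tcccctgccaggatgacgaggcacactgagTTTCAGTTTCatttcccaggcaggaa
Rsad2, GRCr8 chr6:48788228-48788297, - strand: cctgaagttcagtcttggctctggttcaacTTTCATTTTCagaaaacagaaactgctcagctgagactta

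Marrow lineages were mostly lower in F344. Of 24 neutrophil granule genes 13 were called lower and 1 higher, with a median of -0.28. After Defa7 the largest falls were Camp, the cathelicidin precursor, and Mmp8, the neutrophil collagenase. Camp read 11117, 11854, 10756 and 11184 on the F344 arrays and 19639, 20362, 19853 and 20545 on the DA arrays, a difference of -0.84 (SE 0.06, adjusted p = 7.72e-10). Mmp8 read 1804, 1876, 1876 and 1848 on the F344 arrays and 2822, 3235, 3368 and 3540.2 on the DA arrays, a difference of -0.80 (SE 0.08, adjusted p = 1.78e-07). In both genes the arrays were far apart. Chi3l1 (-0.58), Cybb (-0.54), a subunit of the phagocyte oxidase, Pglyrp1 (-0.49), Lcn2 (-0.29) and S100a8 (-0.26) went the same way. The single rise, Mmp9 (0.39), is also a gelatinase of osteoclasts, and 2 genes were called higher without F344 replicate 4.

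B lymphoid genes gave the highest share of calls of any list, 11 lower and 2 higher of 16, with a median of -0.51. Jchain, which joins the units of IgM and IgA in plasma cells, read 1863, 1687, 1929 and 1757 on the F344 arrays and 2310.5, 4857, 5673 and 4037 on the DA arrays, a difference of -1.15 (SE 0.18, adjusted p = 0.000127). DA replicate 1 was well below the other DA arrays, though still above F344. Lower genes covered several stages of the lineage: Vpreb3 (-0.58) and Ebf1 (-0.25) of early stages, the receptor chain Cd79b (-0.60), the surface markers Ms4a1 (-0.59) and Cr2 (-0.58), the signalling proteins Blk (-0.88) and Blnk (-0.51), and the plasma cell gene Mzb1 (-0.46). For Vpreb3 and Mzb1 the F344 and DA arrays overlapped. The 2 rises were Fcrl2 and the inhibitory receptor Cd22, which read 631, 628, 596 and 613 on the F344 arrays and 343, 333, 268 and 418 on the DA arrays, a difference of 0.87 (SE 0.16, adjusted p = 0.000814). Over the list mean, F344 arrays read -0.37 to -0.26 and DA arrays -0.33 to 0.11, so that they overlapped through DA replicate 1.

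Platelet and megakaryocyte genes were lower in 9 of 19 and higher in 1, with a median of -0.40. After Pf4 came Gp9, a chain of the receptor for von Willebrand factor, at 1323 ± 95.9 in F344 against 1956 ± 193 in DA (SD, n = 4), the activating receptor Clec1b (-0.55) and the integrin chain Itga2b (-0.49). Selp, or P-selectin, differed by -0.56, a call lost without F344 replicates 2 or 4 or DA replicates 2 or 3. The rise, Tubb1 (0.31), was lost without any 1 of 7 arrays. Erythroid genes were lower in 14 of 34 and higher in 1, with a median of -0.24. Hemgn, a nuclear protein of erythroid precursors, read 14825, 14588, 14425 and 14825 on the F344 arrays and 22661, 20842, 24049 and 23277 on the DA arrays, a difference of -0.63 (SE 0.07, adjusted p = 9.15e-07). Car1, the red cell carbonic anhydrase, averaged 21733 ± 655 in F344 against 29332 ± 3239 in DA, a difference of -0.43. The lineage regulators Klf1 (-0.35), Gata1 (-0.35) and Tal1 (-0.32) and the haem enzyme Fech (-0.33) were lower by similar amounts. Sptb, spectrin beta, was the 1 gene higher, by 0.42, and lost its call without F344 replicates 1, 2 or 4 or DA replicates 1 or 2.

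Cell cycle genes were lower in F344 by small and even amounts. Of 52 members 27 were called lower and 2 higher, 48 had a negative difference, and the median was -0.21. Ttk, a kinase of the spindle checkpoint, stood out with signals of 1316, 1117, 1223 and 1211 on the F344 arrays and 2581, 2664, 2673 and 2667 on the DA arrays, a difference of -1.12 (SE 0.09, adjusted p = 2.81e-08). Ccnd3, cyclin D3, read 7523, 7587, 7358 and 7364 on the F344 arrays and 9999, 10844, 9913 and 9988 on the DA arrays, a difference of -0.45 (SE 0.06, adjusted p = 1.98e-05). Birc5 (-0.44), Bub1b (-0.38), Top2a (-0.38), Mcm4 (-0.37) and Mki67 (-0.21) show the usual size. Cdkn1a, the p21 inhibitor that halts the cycle, went the other way, at 1413, 1342, 1286 and 1326 on the F344 arrays and 970.3, 668, 607 and 956 on the DA arrays, a difference of 0.78 (SE 0.14, adjusted p = 0.000655). The second inhibitor called higher was Cdkn1b (0.24). The count of falls depended on single arrays: it was 14 without F344 replicate 1 and 15 without DA replicate 2, and the count of rises was 1 without any 1 of 6 arrays or with median centring.

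Promoters of cycling genes often carry CCAAT boxes, bound by the factor NF-Y. CCAAT, or ATTGG on the opposite strand, stood in the 250 bases before the start of 18 of the 25 lower cell cycle genes with a promoter in the RefSeq table, and in 34.3% of all 27457 promoters. The pattern TTTGAA, the core of the CHR element of late cell cycle genes, stood in 5 of the 25 and in 16.03% of all. The stretches below are shown because they belong to genes that were lower together; capitals mark CCAAT or ATTGG.
Ttk, GRCr8 chr8:93634579-93634638, + strand: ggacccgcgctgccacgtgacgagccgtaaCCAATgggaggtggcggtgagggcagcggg
Top2a, GRCr8 chr10:84473116-84473180, - strand: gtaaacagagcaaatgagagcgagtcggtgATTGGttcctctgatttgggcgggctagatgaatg
Plk1, GRCr8 chr1:186147590-186147654, + strand: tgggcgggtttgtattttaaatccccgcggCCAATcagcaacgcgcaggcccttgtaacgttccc

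Of 5 tissue lists set beside these marrow and cell cycle lists, growth plate cartilage differed most and the others little. The mean of the 26 growth plate cartilage genes was 0.20 ± 0.03 (SD, n = 4) in F344 and -0.13 ± 0.13 (SD, n = 4) in DA on the centred log2 scale, a difference of 0.34. The two-sided exact permutation p was 0.0286, the smallest that 4 against 4 arrays allow, or 0.143 adjusted over the 5 tissue lists tested. For the other 4 the differences were 0.07 for skeletal muscle (p = 0.257, exact), 0.03 for tendon and synovium (p = 0.514, exact), 0.01 for nerve and Schwann cell (p = 0.714, exact) and 0.00373 for adipocytes (p = 0.943, exact). The share of cartilage in the dissected piece as a part of the marrow and cell cycle differences was not tested.

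**Figure D4:**
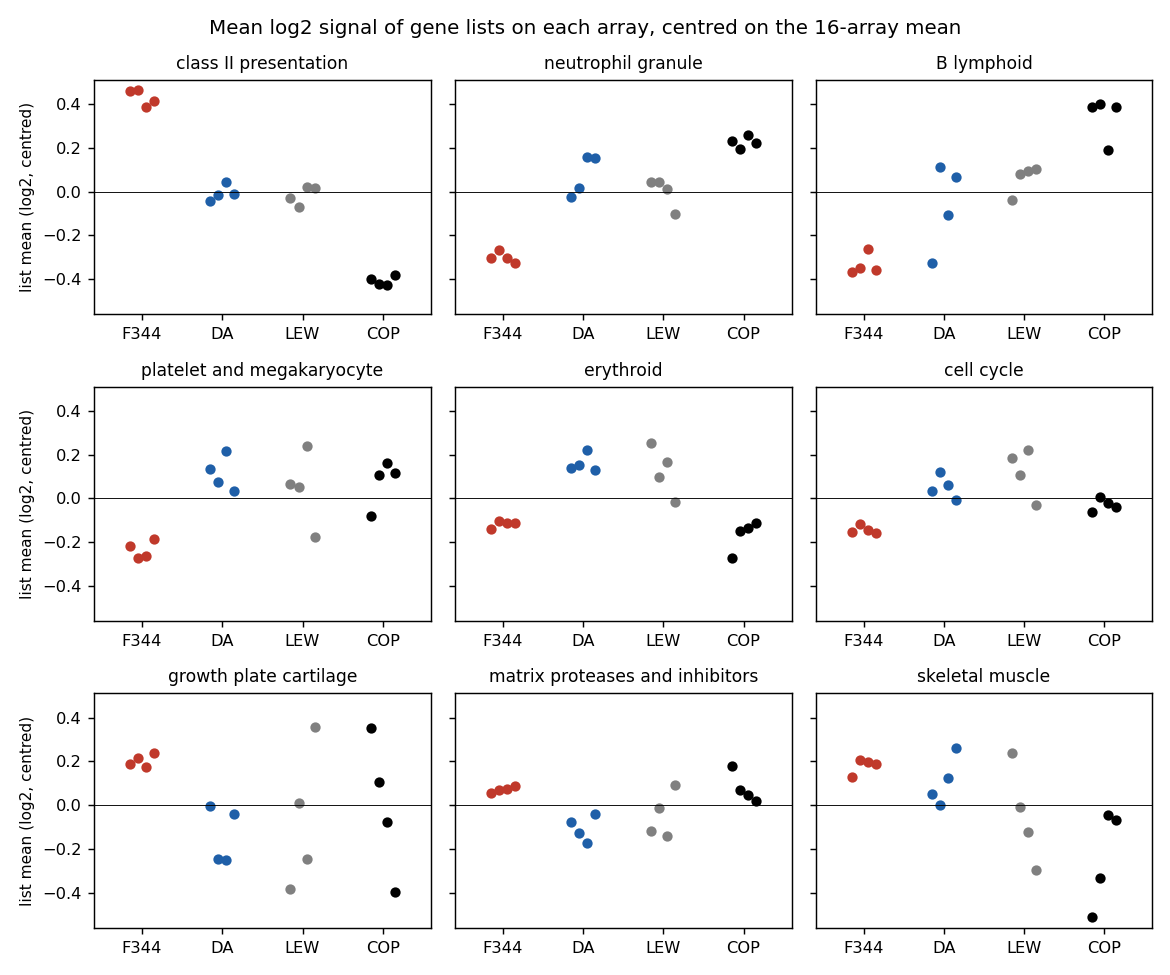
Mean log2 signal of the tested members of 9 gene lists on each array, centred on the mean of all 16 arrays (vertical), by strain (horizontal, 4 points each). F344 points lie above DA for class II presentation and growth plate cartilage and below DA for neutrophil, platelet, erythroid and cell cycle genes, while the B lymphoid points overlap through DA replicate 1.

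Other blood cells did not move one way. Of 27 monocyte and macrophage genes 5 were higher and 5 lower, with a median of 0.07. Fcgr3a, an activating Fc receptor, read 753, 719.7, 711 and 688 on the F344 arrays and 305, 361, 447 and 428 on the DA arrays, a difference of 0.91 (SE 0.13, adjusted p = 5.37e-05), whereas the inhibitory receptor Fcgr2b averaged 599 ± 59.5 in F344 against 818 ± 49.4 in DA (SD, n = 4), a difference of -0.45. Cd14, which hands lipopolysaccharide to its signalling receptor, was higher (0.48) and the haemoglobin scavenger receptor Cd163 lower (-0.43). The 5 rises became 3 with quantile normalization, with median centring, or without F344 replicates 3 or 4 or DA replicate 1. Of 13 T and natural killer cell genes 2 were higher and 1 lower. Cd3g, a chain of the T cell receptor complex, read 1690.2, 1827, 1835 and 1616 on the F344 arrays and 457, 779, 744 and 866 on the DA arrays, a difference of 1.33 (SE 0.14, adjusted p = 9.65e-07). The T cell factor Tcf7 was higher (0.71) and the adaptor Lat lower (-0.57).

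The mast cell, basophil and eosinophil list was mixed, with 5 of 17 higher and 4 lower. Proteases of mast cells and basophils were among the rises: Cpa3 read 1532, 1686, 1542 and 1626 on the F344 arrays and 829, 829, 881 and 991 on the DA arrays, a difference of 0.86 (SE 0.10, adjusted p = 5.72e-06), and Mcpt8 6220.3, 5486, 6054 and 5717 on the F344 arrays and 3830.1, 3389.6, 3945 and 3527 on the DA arrays, a difference of 0.68 (SE 0.07, adjusted p = 6.16e-07). Mcpt10 (0.65) went with them. Mcpt9 differed by 0.76, but its arrays overlapped and its call was lost without F344 replicates 2 or 3 or DA replicate 2. The lipoxygenase Alox15 (0.33) was the other rise. Among the falls were eosinophil granule proteins: Prg2, the major basic protein, read 19431, 16575, 17142 and 17322 on the F344 arrays and 26462, 27554, 32665 and 33857 on the DA arrays, a difference of -0.77 (SE 0.09, adjusted p = 3.13e-06), and the peroxidase Epx (-0.58) was lower too. The beta and gamma chains of the IgE receptor, Ms4a2 (-0.45) and Fcer1g (-0.20), which mast cells and basophils carry, were also lower.

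Chemokines and interleukins with their receptors were lower in 12 of 54 and higher in 5. Cxcl9, a chemokine induced by interferon gamma that attracts T cells, was the largest rise, at 907, 962, 965 and 1013 on the F344 arrays and 348, 302, 276 and 329 on the DA arrays, a difference of 1.62 (SE 0.15, adjusted p = 8.87e-08). Its second probe set differed by 2.38, with no overlap of arrays in either. Il18 and Cxcl16 were higher by 0.61 each. The lower group held the myeloid chemokines Ccl6, at 1903 ± 86.1 in F344 against 3449 ± 407 in DA (SD, n = 4) and -0.85, and Ccl9, at -0.70, the cytokine Il1b (-0.62), and the receptors Il6r (-0.77), Il10ra (-0.66), Ccr1 (-0.63) and Il17ra (-0.52). Cxcl12, which holds blood stem cells in marrow, was lower by a small margin (-0.23). In the TNF superfamily list, which includes the osteoclast factor RANKL and its partners, 1 of 17 was higher and 2 were lower. That called share, 17.6%, was near the 17.3% of all genes. Tnfrsf14 differed by -0.30 and kept its call, while the calls of Tnfrsf12a (0.37) and Ltb (-0.32) were each lost without most single arrays, leaving between 0 and 2 rises and 1 fall.

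Cells that form bone tended to the higher side in F344. Of 27 osteoblast and bone matrix genes 9 were called higher and 2 lower, with a median of 0.07. Several of the rises belong to mineralization. Ankh, which exports pyrophosphate, read 2934, 3416, 2899.9 and 3152 on the F344 arrays and 1825, 1967, 1710.2 and 2038 on the DA arrays, a difference of 0.72 (SE 0.08, adjusted p = 2.84e-06). Alpl, the alkaline phosphatase that degrades pyrophosphate, read 1781, 2283, 2059.5 and 1998 on the F344 arrays and 1710.2, 1279, 1333 and 1317 on the DA arrays, a difference of 0.53 (SE 0.13, adjusted p = 0.00728). DA replicate 1 was close below the lowest F344 array. Its companions Phospho1 (0.41) and Smpd3 (0.47) were higher and Enpp1 (-0.52), which makes pyrophosphate, lower. Fkbp10, a collagen chaperone, averaged 6198 ± 431 in F344 against 3915 ± 255 in DA (SD, n = 4), a difference of 0.66, and P3h1 (0.48), a prolyl hydroxylase, Dlx3 (0.52) and Serpinf1 (0.26) were also higher. The main structural genes were not called: Col1a1 differed by -0.13 (adjusted p = 0.228) and Bglap, osteocalcin, by -0.12 (adjusted p = 0.247).

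Bmp3, an inhibitory member of the BMP family, was the largest fall of the osteoblast and bone matrix list, at 441, 349, 608 and 493 on the F344 arrays and 864, 904, 944 and 1010.1 on the DA arrays, a difference of -1.003 (SE 0.18, adjusted p = 0.000598). LEW and COP, at 1063 and 1083, stood with DA. Of 11 genes of osteocytes and phosphate handling 3 were higher and 2 lower, the chaperone Hyou1 (-2.43, given above) and Reln. Phex, the peptidase mutated in X-linked hypophosphataemia, read 5823, 5843, 5997 and 5894 on the F344 arrays and 4336, 3688, 4091 and 3950.4 on the DA arrays, a difference of 0.55 (SE 0.12, adjusted p = 0.00365). Pdpn, a marker of young osteocytes, was higher by 0.58 and the kinase Fam20c (0.39) as well. Reln, a secreted glycoprotein, read 652, 614, 622 and 629 on the F344 arrays and 1107, 1151, 1164 and 1045 on the DA arrays, a difference of -0.83 (SE 0.11, adjusted p = 1.07e-05). Dmp1 and Mepe differed by 0.19 and 0.16 and were not called.

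Osteoclast genes were called higher in 4 of 20 and lower in 1. Mmp9 read 17142, 18368, 17813 and 17483 on the F344 arrays and 14712, 12924, 12722 and 13709.8 on the DA arrays, a difference of 0.39 (SE 0.08, adjusted p = 0.0027), and a second Mmp9 probe set differed by 0.42. Fos, a transcription factor needed for osteoclast formation, read 2469.6, 2309.7, 2414 and 2527 on the F344 arrays and 960.1, 1761, 1531 and 1548 on the DA arrays, a difference of 0.78 (SE 0.19, adjusted p = 0.00845). Both sets of arrays were apart, but Jdp2 (0.58) and Slc9b2 (0.46) sat near the threshold: Jdp2 lost its call without any 1 of the 8 arrays, and Slc9b2 without F344 replicates 1 or 3 or DA replicates 3 or 4. The 4 rises became 2 without F344 replicates 1 or 3 or DA replicates 3 or 4, and 7 in a fit of the 8 arrays alone. The lower gene, Car2 (-0.26), is also a red cell enzyme. Ctsk and Acp5, the defining protease and phosphatase, differed by 0.02 (adjusted p = 0.917) and 0.24 (adjusted p = 0.0601).

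Growth plate cartilage genes were called higher in 6 of 26 and lower in 0, with a median of 0.37. Panx3, a channel of prehypertrophic chondrocytes and osteoblasts, read 6189, 6653, 6171 and 6306 on the F344 arrays and 3676, 3284, 3215 and 3639.5 on the DA arrays, a difference of 0.88 (SE 0.14, adjusted p = 0.000187). Col9a3, a chain of the collagen that coats cartilage fibrils, read 15571, 16567, 15964 and 16234 on the F344 arrays and 11106, 7634, 7985 and 9822 on the DA arrays, a difference of 0.83 (SE 0.19, adjusted p = 0.00494). Col11a2 read 12152, 12395, 11582 and 11163 on the F344 arrays and 8701, 8360.1, 6766 and 8505 on the DA arrays, a difference of 0.55 (SE 0.12, adjusted p = 0.00252). Every F344 array was above every DA array for these genes, and the DA arrays of Col9a3 were the more scattered. Papss2, which makes the sulfate donor for proteoglycans, was higher by 0.56 at its brighter probe set and by 0.12, not called, at the other. Trps1 (0.54) and Pth1r (0.42) were called too. Col2a1, Acan and Col10a1 differed by -0.02, 0.26 and 0.23 and were not called. A fit of the 8 F344 and DA arrays alone, which leaves out the widely spread LEW and COP arrays, called 16 of the 26 higher.

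Enzymes and inhibitors of matrix turnover were higher in 14 of 38 and lower in 4, with a median of 0.19. Mmp12, the macrophage elastase, read 614, 438, 385 and 498 on the F344 arrays and 220.2, 221, 112 and 226 on the DA arrays, a difference of 1.35 (SE 0.25, adjusted p = 0.000814). Timp1, an inhibitor of metalloproteinases, read 14959.7, 14572, 14948 and 14621 on the F344 arrays and 8833, 8055, 9242 and 9398 on the DA arrays, a difference of 0.74 (SE 0.10, adjusted p = 2.82e-05). For Timp1 the F344 arrays stood clear above DA on a bright signal. Mmp13, the collagenase of hypertrophic cartilage and osteoblasts, was higher by 0.34, and Mmp2, Mmp16, Mmp24, Adamts4, Adamts9 and Adamts10 by 0.21 to 0.49. The falls were the neutrophil enzyme Mmp8, Adam8 (-0.68), Adam10 (-0.49) and Adamts12 (-0.29). Among collagens and the enzymes that process them 9 of 38 were higher and 3 lower. P4ha3, a subunit of prolyl hydroxylase, read 963, 937, 809 and 1053 on the F344 arrays and 2432, 2585, 2394 and 2261 on the DA arrays, a difference of -1.37 (SE 0.11, adjusted p = 9.65e-09). Col8a1, of a network-forming collagen, averaged 494 ± 126 in F344 against 983 ± 182 in DA (SD, n = 4), a difference of -1.01, and its partner Col8a2 (-0.42) was lower as well. Col24a1 averaged 3668 ± 291 in F344 against 2494 ± 165 in DA and was higher by 0.56, with Lox (0.42), the collagen cross-linking oxidase, and Pcolce (0.35). Col27a1 was higher by 0.66 and lost its call without any 1 of 7 arrays.

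Of 21 integrins, the receptors that bind cells to matrix and to each other, Itga1 was called higher and 3 were lower, all chains of blood cells: Itgal of leukocytes (-0.74), Itga2b of platelets (-0.49) and Itgax of myeloid cells (-0.42). Itgal read 763, 811, 766 and 832 on the F344 arrays and 1261, 1214, 1505 and 1317 on the DA arrays, and LEW averaged 103. The count of rises was 2 without DA replicate 4 and 3 in the fit of 8 arrays.

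Of the signalling families that direct bone growth, 3 lay below the 17.3% called among all genes. These were the insulin-like growth factor (12.5%), BMP and TGF-beta (13.7%) and Wnt (10.8%) lists. The Hedgehog and parathyroid pathway was near it at 18.2%, and the FGF and VEGF pathway was above it at 31.03%. Among 24 genes of the insulin-like growth factors, their receptors and binding proteins, 2 were higher and 1 lower. Igfbp4, a binding protein that restrains the growth factors, read 873, 733, 729 and 774 on the F344 arrays and 1249, 1153, 1115 and 1371 on the DA arrays, a difference of -0.65 (SE 0.09, adjusted p = 2.33e-05). Grb10, an adaptor that damps receptor signalling, was higher by 0.22 and Igfbp6 by 0.26, the latter lost without F344 replicate 2 or DA replicate 3, which left 1 rise. In the BMP and TGF-beta pathway 4 of 51 were higher and 3 lower, with the ligands Bmp3 (-1.003) and Bmp5 (-0.47) on the lower side. Bmp5 lost its call without F344 replicate 1 or DA replicate 2, and its second probe set differed by 0.12, not called. The co-receptor Hjv (0.44), the target Id3 (0.33), Tgfbr1 (0.32) and Bmp1 (0.25) were higher. Those 4 became 1 without F344 replicate 1 and 2 without F344 replicate 2 or DA replicate 2.

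In the Wnt pathway 3 of 37 were higher and 1 lower. Lrp6, the co-receptor, read 479.99, 471, 567 and 620.5 on the F344 arrays and 819.9, 982, 724 and 863 on the DA arrays, a difference of -0.67 (SE 0.12, adjusted p = 0.000646). Nkd2, an inhibitor of Dishevelled, averaged 341 ± 33.7 in F344 against 218 ± 38.3 in DA (SD, n = 4), a difference of 0.66. Tcf7 (0.71), given with the T cell genes, is also a nuclear factor of this pathway. Sfrp4, a secreted Wnt antagonist, was higher by 0.29 with overlapping arrays, a call lost without any 1 of 5 arrays. The fit of 8 arrays called 6 rises. In the FGF and VEGF pathway, with platelet-derived growth factors, 7 of 29 were higher and 2 lower, with a median of 0.24. Pdgfrb was higher by 0.63 at its brightest probe set and by 0.24 and 0.33, not called, at the others. Its ligand Pdgfa averaged 1882 ± 86.9 in F344 against 1371 ± 152 in DA, a difference of 0.46, and Fgf13, Fgf1, Nrp2, Spry2 and Kdr were higher by 0.33 to 0.51. Fgf7 differed by -0.47, a call lost without any 1 of 7 arrays, which left 1 fall, as did median centring. In the Hedgehog and parathyroid pathway 2 of 11 were higher and 0 lower. Creb1, a transcription factor activated by cyclic AMP, read 2496, 2425, 2549 and 2701 on the F344 arrays and 1382, 1458, 1458 and 1393 on the DA arrays, a difference of 0.84 (SE 0.08, adjusted p = 1.77e-07). A dimmer Creb1 probe set differed by 0.04 and was not called. Pth1r, the parathyroid hormone receptor, was higher by 0.42, lost without F344 replicates 1 or 2 or DA replicates 3 or 4. The 2 rises became 1 without F344 replicate 2 or DA replicates 3 or 4, and 4 without DA replicate 1.

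Vascular genes were mixed. Of 24 endothelial genes 4 were higher and 5 lower. Cldn5 was the largest fall, Icam2 (-0.40) and Vwf (-0.39) were also lower, and Egfl7 (0.43), Kdr (0.33) and Plvap (0.29) were higher. Aplnr, the apelin receptor, was higher by 0.55, lost without F344 replicates 1 or 2 or DA replicates 2 or 3, and the 4 rises became 2 without F344 replicate 1 or DA replicate 2. Of 10 smooth muscle and pericyte genes 4 were higher and 0 lower. They were Pdgfrb, Cspg4 (0.44), Tagln (0.38) and Rgs5 (0.31), and the last 3 each lost their call without 2 or more of the arrays taken singly. The 4 became 2 without F344 replicate 2 and 1 without DA replicate 2. Acta2 and Myh11, the contractile markers, differed by 0.08 and -0.31 and were not called.

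Genes of fat, muscle, tendon and nerve gave few calls. Of 28 adipocyte genes 2 were higher, Ucp1 and the lipid droplet coat Plin2 (0.34), and 2 lower, the fatty acid transporter Cd36 (-0.39) and the desaturase Scd. Scd read 3238, 3482, 3186 and 3398 on the F344 arrays and 4703, 6018, 5494 and 5988 on the DA arrays, a difference of -0.73 (SE 0.20, adjusted p = 0.0147). The fat cell markers Adipoq and Fabp4 differed by -0.23 and 0.02 and were not called. Of 22 genes of cholesterol synthesis and export 6 were higher and 0 lower, with a median of 0.18; 1 was lower without DA replicate 4. Msmo1 read 1659, 1667, 1658 and 1431 on the F344 arrays and 1413, 1014, 1028 and 995 on the DA arrays, a difference of 0.54 (SE 0.12, adjusted p = 0.00281), and the enzymes Cyp51 (0.43), Sqle (0.32) and Idi1 (0.30), the carrier Stard4 (0.52) and Apoe (0.41) went with it.

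Of 43 skeletal muscle genes 1 was higher (Myh1, contradicted by another of its probe sets) and 1 lower. The lower gene was Myh3, the embryonic heavy chain, at 2325, 2745, 2451 and 2398 on the F344 arrays and 4471, 2914, 3805 and 3349 on the DA arrays, a difference of -0.54 (SE 0.15, adjusted p = 0.0195). That call was lost without F344 replicate 1, DA replicate 1 or DA replicate 3. Quantile normalization called 2 rises and the fit of 8 arrays 4. Of 15 tendon and synovium genes only Tnmd, the tendon marker tenomodulin, was called, at 12341 ± 270.01 in F344 against 16419.8 ± 2851 in DA (SD, n = 4) and -0.40, with 2 falls without DA replicate 3. Of 9 nerve and Schwann cell genes only Cnp was called (-0.34). The fit of 8 arrays or leaving out DA replicate 2 called 1 rise, and leaving out F344 replicate 4 called 2 falls.

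Genes that respond within minutes to stimuli or handling, the immediate early list, were higher in 5 of 31 and lower in 0. Besides Fos they were Ier3 (0.45), Klf4 (0.42), Klf10 (0.42) and Atf3. Atf3 read 556, 643, 612 and 673 on the F344 arrays and 226, 323, 526 and 303 on the DA arrays, a difference of 0.91 (SE 0.27, adjusted p = 0.0227). DA replicate 3 lay close to the F344 arrays, and the call was lost without any 1 of 5 arrays. The fit of 8 arrays called 9 rises. Of 25 heat shock genes and chaperones 4 were higher and 2 lower. Dnajb6, a chaperone against protein aggregation encoded on chromosome 4, read 4018, 4349.6, 4230.5 and 4309.7 on the F344 arrays and 1998, 2293, 2538 and 2363 on the DA arrays, a difference of 0.88 (SE 0.07, adjusted p = 2.98e-08). LEW was higher still at 7240.2. Hspa4 was higher by 0.93 with overlapping arrays and lost its call without F344 replicates 2 or 3 or DA replicate 4, which left 2 rises. Dnajb4 (0.26) and Hspa5 (0.20) were higher and Cacybp (-0.27) and Hsph1 (-0.24) lower; 1 fall was left without F344 replicate 3 or DA replicates 2 or 3.

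Enzymes of glutathione and xenobiotic metabolism, which handle foreign compounds and oxidants, held several of the largest changes, with 11 of 56 higher and 8 lower and a median of 0.02. After Cyp4v3, Ephx2 and Akr1b8 came Gstt3, a theta-class glutathione transferase, at 245, 273, 229 and 216 on the F344 arrays and 777, 513, 821 and 785 on the DA arrays, a difference of -1.57 (SE 0.15, adjusted p = 1.28e-07). LEW was higher than DA for it, at 1118. Nqo2 (0.95), a quinone reductase, Cyp1b1 (0.84), the retinoic acid hydroxylase Cyp26b1 (0.68) and the retinaldehyde dehydrogenases Aldh1a1 (0.64) and Aldh1a3 (0.50) were higher. Gclc (-0.79), the rate-limiting enzyme of glutathione synthesis, Akr7a3 (-0.51) and Sod1 (-0.23) were lower.

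Chromatin and RNA modifiers were lower in 7 of 50 and higher in 2, a called share of 18%, near the 17.3% of all genes. Negative differences were found for 36 of 50, with a median of -0.08. Besides Setd1b and Srsf3, Dnmt1, the maintenance DNA methyltransferase, averaged 2599 ± 182 in F344 against 4039.8 ± 331 in DA (SD, n = 4), a difference of -0.64. Setd2 (-0.48), Srsf1 (-0.43), Ezh2 (-0.32) and Ep300 (-0.31) were lower by less. Hdac4, a histone deacetylase that restrains chondrocyte hypertrophy, read 439, 523, 345 and 437 on the F344 arrays and 254, 238, 214 and 300.4 on the DA arrays, a difference of 0.79 (SE 0.14, adjusted p = 0.000545). The 2 rises became 1 without any of the F344 replicates or DA replicates 3 or 4, each in turn, and with quantile normalization, median centring or the fit of 8 arrays; the other rise was Hdac2 (0.16).

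Housekeeping groups were nearly free of calls. Oxidative phosphorylation had 1 of 51 higher (Ndufa2, 0.21) and 1 lower (Ndufs8, -0.33). Neither was stable: Ndufa2 lost its call without any 1 of 6 arrays and Ndufs8 without F344 replicate 1 or DA replicate 4. Proteasome genes had 0 of 36 higher and 2 lower, Psmg1 (-0.32) and Psmd10 (-0.28), and quantile normalization called 5 falls. Cytosolic ribosomal proteins had 0 of 31 higher and 1 lower, although 30 of the 31 had negative differences and the median was -0.12. Rps3, the called one, read 34102, 33700.4, 36634 and 34968 on the F344 arrays and 44727, 40522, 44751 and 41507 on the DA arrays, a difference of -0.30 (SE 0.06, adjusted p = 0.000731). With quantile normalization it missed the threshold (adjusted p = 0.0503), and without DA replicate 1 there were 5 falls. The sex-linked list had 4 tested genes and 0 calls.

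Because the study concerned a locus on chromosome 4, its genes were set beside the rest. Of 606 tested genes on chromosome 4, 104 (17.2%) were called, 44 higher and 60 lower, against 17.3% of the 9910 genes placed on other chromosomes. The share was thus close to the background. Split along the chromosome into 6 blocks of 101 genes, the calls numbered 17, 15, 21, 14, 15 and 22, the last block running from Zfp384 to Resf1. Changes of 2-fold or more were called for 5 of the 606, beside 103 of all 10548 genes (0.976%). Over the other chromosomes the called share ran from 13.1% on chromosomes 7 and 12 to 22.3% on chromosome 13. Changes of 2-fold or more were called for 13 of 1308 genes on chromosome 1, close to the share of all genes. On chromosome 8 they were called for 13 of 608.

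**Figure D5:**
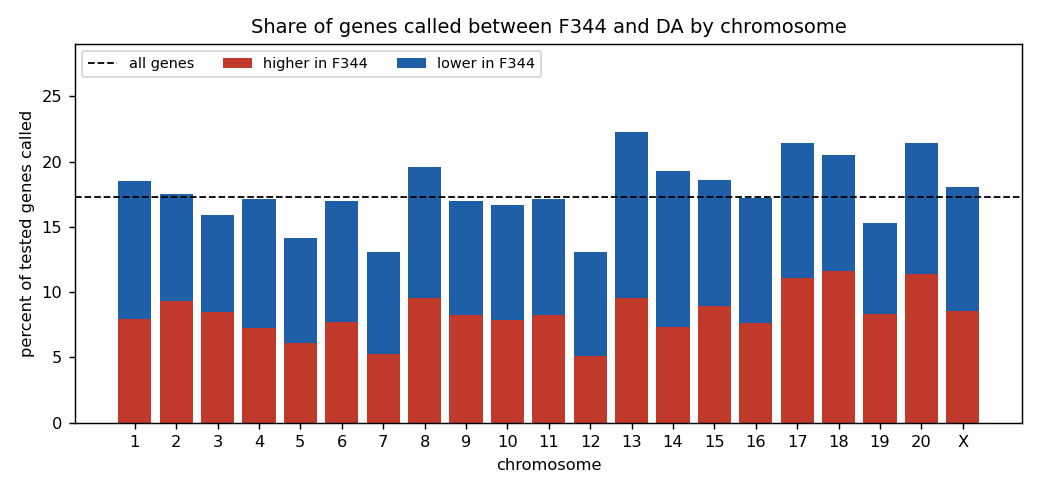
Percent of tested genes called on each chromosome (vertical), split into higher (red) and lower (blue) in F344, with the 17.3% of all genes dashed. Chromosome 4, at 17.2%, lies at the line, and chromosome 13 is the highest at 22.3%.

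Besides Klhl42, Akr1b8, Pdk4 and Dnajb6, the 10 largest changes on chromosome 4 included 3 falls and 3 rises. Klra4, a receptor of natural killer cells that reads class I molecules, read 547, 541, 481 and 477 on the F344 arrays and 1130.3, 1338, 1271 and 1462 on the DA arrays, a difference of -1.34 (SE 0.13, adjusted p = 2.81e-07). Irag2 averaged 1099.7 ± 127 in F344 against 2042 ± 96.7 in DA (SD, n = 4), a difference of -0.90. Npy, neuropeptide Y, which is released by nerves and by cells of the bone, read 3898, 3836, 4321 and 4088 on the F344 arrays and 6504, 6809, 8333 and 8228 on the DA arrays, a difference of -0.88 (SE 0.11, adjusted p = 9.15e-06). None of their arrays overlapped, which the rule for naming them required. Art4, an ADP-ribosyltransferase that carries a blood group on red cells, read 689, 753, 798 and 644 on the F344 arrays and 337, 375, 401 and 291 on the DA arrays, a difference of 1.04 (SE 0.16, adjusted p = 9.4e-05). Bhlhe40, a transcription factor of the circadian clock and of hypoxia, read 539, 655, 645 and 538 on the F344 arrays and 289.6, 321, 286 and 299 on the DA arrays, a difference of 0.99 (SE 0.14, adjusted p = 3.23e-05). Rps4y2, a ribosomal protein gene copy, was higher by 0.93; ribosomal proteins have many near-identical copies, so its assignment is uncertain. Lrp6, Reln, Gp9, Clec1b, Cd163, Cd36 and Cyp51, described with their groups, are also on chromosome 4.

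The contrast of LEW with COP, whose strain means use none of the 8 F344 and DA arrays, called 1490 of the 10548 genes (14.1%). Both contrasts came from the same model, so they shared the filter and each gene's estimate of the spread. A gene with a small spread was thus easier to call in both, and how far this raised the overlap was not tested. Of the 1825 genes called between F344 and DA, 517 were among them, or 28.3%, which is 34.7% of the LEW and COP calls. Of the 8723 genes not called between F344 and DA, 11.2% were. The direction F344 over DA matched LEW over COP for 321 of the 517 and was opposite for 196. Of the 103 genes with 2-fold changes between F344 and DA, 57 (55.3%) were called between LEW and COP, 38 in the matching direction and 19 in the opposite one.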

How the data were processed

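Total RNA of the proximal femur was hybridised to 1 expression array per sample, and 8 arrays (4 F344, 4 DA) were compared within a model of all 16. The deposited intensity values, 1 signal per probe set, come from the program MAS5, of a version left unstated, per the submitters' processing notes. Its scaling target is not given in the sources used here. Checked on the values, the deposited signals had a 2% trimmed mean of about 1000.3 on each of the 8 arrays and medians of 310 to 325, so the level of every array was already set, while dim signals carry more noise.

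Of 31099 probe sets, 57 controls were left out. The platform annotation gave 1 symbol to 20826, several to 436 and none to 9780, and 20758 matched a RefSeq table of GRCr8, used for chromosomes; no build was given for the array. Signals below 1 were set to 1 (130 values on the 8 arrays) and turned into log2 values with no pseudocount. Probe sets under the 40th percentile of mean log2 signal (signal 174) were left out, which kept 18625. limma 3.58.1 (R 4.3.3) fitted 1 mean per strain with an intensity trend and 12 residual degrees of freedom; p-values were two-sided and Benjamini-Hochberg adjusted over all kept probe sets, with 0.05 as the threshold. Where several kept probe sets named a gene, the brightest on average stood for it (10548 genes). The fit was checked on simulated data. The number of arrays, not a read depth, limits the precision.

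Named genes were, among called genes with 1 symbol and no overlap of arrays, the 15 largest rises and 15 largest falls, the 5 largest of each with mean signals above 1000 in both strains and the 10 largest on chromosome 4, and up to 4 called members of each list, overlap allowed. Smaller list members are named to describe a list. Numbered locus symbols were passed over (1, the largest fall). The comparison, the lists and these rules were chosen with earlier results of these data known. Tissue lists and RNA ratios were compared by two-sided exact permutation tests (scipy 1.17.1), and promoter letters were searched in RefSeq promoters of GRCr8. Alternatives were quantile normalization, median centring, a pseudocount of 19.3, no filter or one at the 60th percentile, no trend, robust moderation, array weights, the 8 arrays alone, the replicate number as a block, a threshold of 0.1, averaging a gene's probe sets, and leaving out each array. Figures used matplotlib 3.10.9.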

Additional observations from a re-analysis of the deposited data

Results flagged for a closer look

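In 21 of 404 sets of 4 arrays examined (the signals of named genes and the list means, each within F344 or within DA), 1 array stood apart from the other 3 by more than Dixon's 95% critical value for the gap over the range. Chance marks about 1 set in 20, and 21 of 404 is near that rate. The sets share arrays and genes of a list move together, so they are not independent.

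DA replicate 1 was the array apart for 7 genes. It was high for Setd1b (2544 against 1863 to 1963 on the other DA arrays), Lbp (1388 against 1230.3 to 1249.8), Alpl (1710.2 against 1279 to 1333) and Msmo1 (1413 against 995 to 1028). It was low for Srsf3 (834 against 1217 to 1291), the class II chain RT1-DMb (1047 against 1708 to 1824) and, by a small margin on a tight group, Ttk (2581 against 2664 to 2673). DA replicate 2 was high for Ccnd3 (10844 against 9913 to 9999) and Egfl7 (1339 against 1213 to 1215) and low for Itgax (1509.6 against 1692 to 1719.6) and Gstt3 (513 against 777 to 821). DA replicate 3 was low for Mmp12 (112 against 220.2 to 226).

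Among the F344 arrays, replicate 1 was high for Defa7 (464 against 349.8 to 357). Replicate 2 was high for the interferon genes Rtp4 (878 against 645 to 683) and Ifitm1 (6887 against 5887 to 5969.7). Replicate 4 was high for Dnajb4 (3548 against 3306 to 3331) and Psmg1 (3686 against 3148 to 3197) and low for Msmo1 (1431 against 1658 to 1667). Of the list means, on the centred log2 scale, the B lymphoid mean of F344 replicate 3 was -0.26 against -0.37 to -0.35, the osteocyte and phosphate mean of F344 replicate 2 was -0.22 against -0.12 to -0.10, and the TNF superfamily mean of F344 replicate 2 was -0.0803 against 0.01 to 0.02. The genes marked here kept their call between F344 and DA under every alternative tried.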

How the results depend on the processing

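None of the 160 called genes named by rule changed direction under the alternatives tried; smaller list members were not followed gene by gene. The 2998 called probe sets were 2263 to 2912 when 1 array was left out and 2577 to 4162 under the other alternatives; the 1825 called genes were 1350 to 1757 and 1559 to 2534, and the 104 called genes on chromosome 4 were 86 to 105 and 100 to 121. All stayed within 1.5 times the main count. Of the 160 genes, 134 kept their call under every alternative and 26 lost it under at least 1, 11 of these only when an array was left out. Counts of called list members also moved, as given with several lists; cell cycle falls, for example, ran from 14 to 27.

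Replicate numbers did not pair F344 with DA arrays: deviations of same-numbered arrays from their strain means correlated at 0.0613, -0.0186, -0.00283 and 0.0211. With the replicate number as a block, 2878 probe sets and 1739 genes were called, and 6 named genes lost their call. The 4 arrays of each strain limit the precision: with the median standard error of 0.11, small differences were called for some genes and missed for others. Dim probe sets near the filter level carry the widest errors, and folds against such a level depend on it.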
